A study of Drosophila melanogaster with 42 samples.

Results

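The regions described here are the peaks of Brahma (Brm) binding in adult Drosophila intestinal stem cells (ISCs). They are every interval in the authors' list of Brahma peaks, 1569 of the 22355 peaks in the 7 lists of the study. Brm was mapped by targeted DamID-seq, in which a chromatin protein carries the bacterial adenine methyltransferase Dam to its binding places, where Dam marks nearby GATC sites, and Dam expressed without a partner records the background of accessible chromatin. The 3 Dam-Brm samples (esg-gal4ts with NREGal80, driving UAS-DamBrm) were set by the authors against Dam-only samples 4, 6 and 8 (the same driver with UAS-Dam). In both groups flies were raised at 18°C to 3 days of adult age and moved to 29°C for 1 day, and each sample held 60 guts. esg-GAL4 is active in ISCs and enteroblasts, the Notch-responsive GAL80 blocks it in enteroblasts, and the UAS-LT3 constructs express the fusion at a very low level, so the profile is that of a tagged transgenic Brm over a short window. Only positions are given in the list, with no count, score or value per sample. The depth behind a peak is therefore unknown, and no spread between the 3 Dam-Brm samples can be given.

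Brahma is the ATPase of the SWI/SNF-type remodeling complexes BAP and PBAP, which slide and evict nucleosomes. The brm gene was found as a member of the trithorax group, which keeps developmental genes active against the Polycomb group. In the fly gut, stem cells renew the epithelium and give rise to enteroblasts, enterocytes and enteroendocrine cells. Brm was profiled beside RNA Pol II as a reporter of active chromatin, with Pc, HP1 and histone H1 as reporters of inactive states, and with the remodeler Kismet and the histone methyltransferase Trr, the proteins the study was about. The HP1 and H1 lists rest on the same 3 Dam-only samples as the Brahma list and the Pc list on 1 of these, whereas the Kismet, Trr and RNA Pol II lists rest on others.

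As a check of the cell type, RNA Pol II peaks were looked up at marker genes. They lay in 4 of 4 enteroblast markers, 3 of 12 enteroendocrine, 4 of 15 enterocyte and 1 of 9 visceral muscle markers, where 41.5% of all genes held one. The enteroblast markers were klu, E(spl)mbeta-HLH, E(spl)m3-HLH and Su(H). Whether RNA Pol II at these genes stems from ISCs or from enteroblasts was not tested. They also lay in the 4 ISC markers (esg, Delta, Sox21a and spdo), but the study names these genes for RNA Pol II in these same data, so they check nothing. Brahma peaks lay in 0 of the 4 ISC markers, 1 of the 4 enteroblast markers, 2 enteroendocrine, 2 enterocyte and 0 visceral muscle markers, where 5.95% of all genes held one. These lists hold 4 to 15 genes each, and a difference from that share was not tested.

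Brahma peaks were short. Their median length was 259 bp, the interquartile range was 205 to 327 bp, and 70.9% measured between 150 and 400 bp. The Kismet peaks had a median of 1784 bp, the RNA Pol II peaks 1235 bp, the Pc peaks 919 bp and the Trr peaks 656 bp, so that of the other lists the H1 list (279 bp) alone was of similar length. Only 61 Brahma peaks (3.89%) reached 1 kb, and these held 19.9% of all base pairs in Brahma peaks. At the other end, 55 peaks were under 50 bp, the shortest 8 bp.

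**Figure D1:**
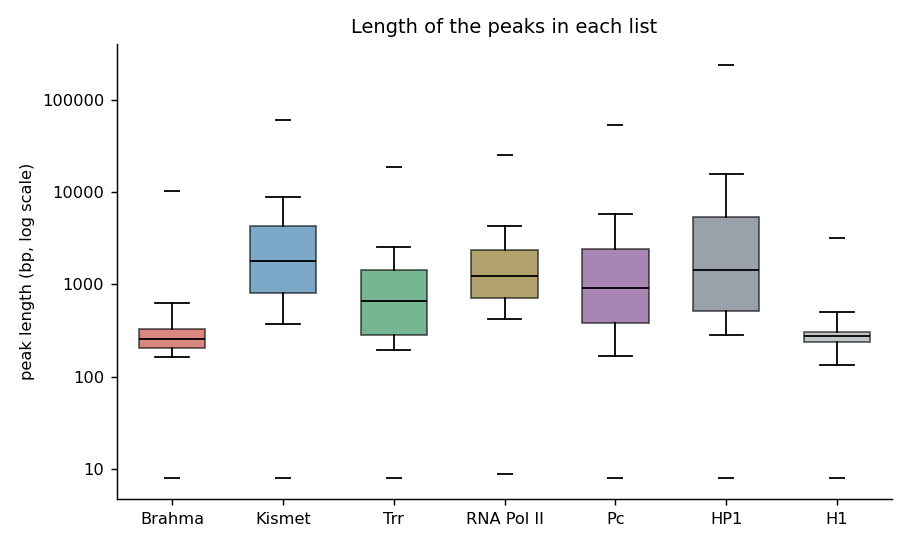
Peak length in bp (log scale) in the lists of Brahma, Kismet, Trr, RNA Pol II, Pc, HP1 and H1. Boxes run from the lower to the upper quartile with the median as a line, whiskers mark the 10th and 90th percentiles, and detached dashes the shortest and longest peak. The Brahma box spans 205 to 327 bp, below the lower quartile of the Kismet and RNA Pol II lists (804 and 722 bp).

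The peaks were spread along the arms at 11.7 per Mb, with 11.1 per Mb on 3L at the low end and 13.5 per Mb on X at the high end of the 5 larger arms. Chromosome 4, which is small and largely heterochromatic, held 1 Brahma peak in 1.28 Mb. It measured 287 bp, lay over asRNA:CR44030 and was covered by an HP1 peak. The stretch of 5 Mb of each larger arm nearest the centromere, together with chromosome 4, makes up 19.6% of the arms and held 5.54% of Brahma peaks. The same regions held 6.55% of Kismet, 6.28% of Trr and 7.87% of RNA Pol II peaks, against 68.9% of HP1 peaks, whose protein marks pericentric heterochromatin.

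Brahma peaks lay mostly inside Kismet peaks. Of the 1569 peaks, 1380 touched a Kismet peak by at least 1 bp (88.0%, 95% Wilson interval 86.3 to 89.5%), and 1264 (80.6%) lay wholly within one. A Trr peak was touched by 1066 Brahma peaks (67.9%, 65.6 to 70.2%), and an RNA Pol II peak by 977 (62.3%, 59.8 to 64.6%). The intervals cover counting error over peaks alone, and neighbouring peaks are not independent. In base pairs, 84.8% of Brahma peak sequence lay in Kismet peaks, 64.7% in Trr peaks and 52.9% in RNA Pol II peaks, where these lists cover 12.05%, 4.08% and 9.93% of the arms. When only the longer peaks of each list were used, the share touching RNA Pol II (53.8%) stood above that touching Trr (49.7%).

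Seen from the other lists the overlap was smaller, since they hold more peaks. A Brahma peak was touched by 1022 of 4562 Kismet peaks (22.4%), 1005 of 4840 Trr peaks (20.8%) and 875 of 6820 RNA Pol II peaks (12.8%) on these arms. The Kismet peaks that touched Brahma had a median length of 5056 bp, and those that did not 1395 bp. For Trr the medians were 1094 bp with and 602 bp without a Brahma peak, and for RNA Pol II 2652 bp with and 1151 bp without. A longer peak has more room to be touched. Among the 1140 longest Kismet peaks 50.4% held Brahma, among the 1141 shortest 8.06%. When the Kismet peaks were split by length into 4 equal sets, the set of the shortest peaks held 182 Brahma peaks per Mb of Kismet peak, and the 3 sets of longer peaks 93.6, 79.9 and 82.3, in order of length. A Brahma peak that only touches a short Kismet peak counts in full here.

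**Figure D2:**
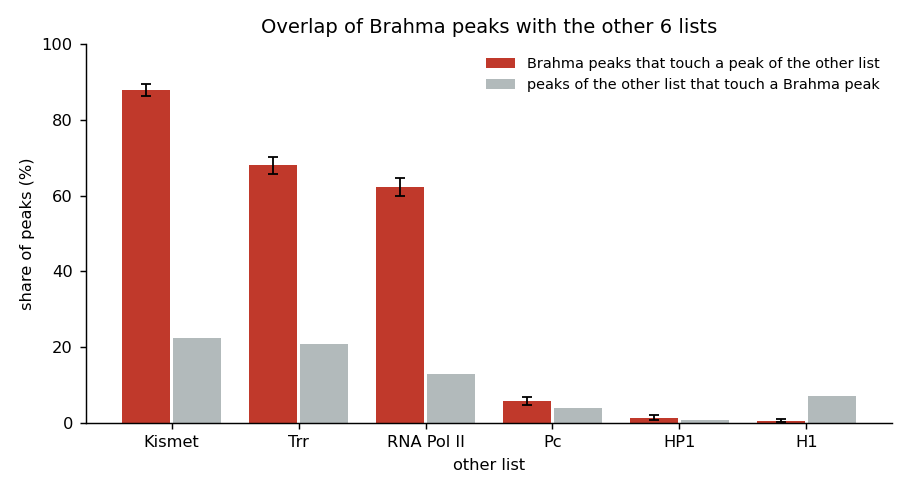
Share of peaks (%) that touch a peak of the partner list by at least 1 bp, for Brahma against each of the 6 other lists. Red bars give the share of the 1569 Brahma peaks, with 95% Wilson intervals, and grey bars the share of the other list. The red bars stand at 88.0%, 67.9% and 62.3% for Kismet, Trr and RNA Pol II and below 6% for Pc, HP1 and H1.

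Some of these contacts were slight. In 75 Brahma peaks the largest overlap with a Kismet peak was 4 bp, the length of a GATC site, as when 2 peaks end at the same site from opposite sides. The same was true of 65 peaks for Trr and 138 for RNA Pol II. Counting overlaps of more than 8 bp left 1303 Brahma peaks at Kismet (83.0%), 999 at Trr (63.7%) and 838 at RNA Pol II (53.4%). Edges often coincided, with 626 Brahma peaks (39.9%) sharing a start or an end with a Trr peak, 306 (19.5%) with an RNA Pol II peak and 261 (16.6%) with a Kismet peak. For 191 Brahma peaks (12.2%) the Trr list held the identical interval, for 28 the RNA Pol II list and for 25 the Kismet list.

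Within longer peaks Brahma was not placed alike. Of 1203 Brahma midpoints in Kismet peaks of 1 kb or longer, 51.0% fell in the middle 50% of the Kismet peak, about the share of its length. Of 568 midpoints in Trr peaks of that length, 37.5% fell in the middle 50%, and of 694 in RNA Pol II peaks 45.2% did, so that Brahma sat towards the edges of the long Trr peaks. The difference between the lists was not tested.

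The commonest combination was Brahma with Kismet, Trr and RNA Pol II together and none of the other 3, which took 796 peaks (50.7%). Their median length was 276 bp. Kismet without any other protein was next with 206 peaks (median 246 bp), then Kismet with Trr (179 peaks, 248 bp) and Kismet with RNA Pol II (116 peaks, 242 bp). Kismet and Trr jointly were touched by 1024 Brahma peaks (65.3%), which lay in 740 genes. The peaks at none of the 6 proteins numbered 112 (7.14%) and were shorter, with a median of 212 bp. Of the 61 peaks of 1 kb or longer, 95.1% touched Kismet, 88.5% Trr and 80.3% RNA Pol II, against 87.7%, 67.1% and 61.5% of the shorter ones. A longer Brahma peak also has more room to touch another.

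Of the 189 Brahma peaks that touched no Kismet peak, 88 lay within 1 kb of one, and the median gap was 1.23 kb. Of the same 189, 31 were more than 10 kb away. For the 1480 Brahma peaks without Pc the median gap to a Pc peak was 61.7 kb.

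Few Brahma peaks met those of Pc, HP1 or H1. Pc, which reads H3K27me3, touched 89 Brahma peaks (5.67%), and 88 of the 2236 Pc peaks (3.94%) were involved. HP1 touched 20 Brahma peaks (1.27%; 19 of 2193 HP1 peaks, 0.866%) and H1 touched 9 (0.574%; 9 of 129 H1 peaks, 6.98%). These are counts from lists that share Dam-only samples with the Brahma list, and what the shared samples add to them was not tested. In base pairs, 3.61% of Brahma peak sequence lay in Pc peaks, which cover 3.92% of the arms, and 0.800% lay in HP1 peaks, which cover 10.3%. H1 went the other way, with 0.574% of Brahma peak sequence in H1 peaks, which cover 0.0324% of the arms. This H1 share rests on 9 Brahma peaks, the longest of them 1532 bp.

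The Pc peaks that touched Brahma were short, with a median of 398 bp against 934 bp for those that did not. Of the 89 Brahma peaks concerned, 74 also touched Kismet, 23 touched Kismet, Trr and RNA Pol II, and 14 touched none of these 3. The widest shared stretch was 1329 bp at CG13321, where one Brahma peak lay wholly in peaks of Pc, Kismet, Trr and RNA Pol II. It was followed by 1019 bp in klu, which encodes a zinc-finger factor expressed in enteroblasts, and by 731 bp at pros, the homeodomain factor of enteroendocrine cells. The single Brahma peak of pros lay wholly in a Kismet and a Pc peak and touched neither Trr nor RNA Pol II. Of the 79148 bp of pros, 25.3% lay in 15 Pc peaks. In klu, Pc covered 44.8% of the gene, and both of its Brahma peaks touched Pc, Kismet and Trr.

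The 9 Brahma peaks at H1 had the same start and end as an H1 peak in all 9 cases. None of them touched Kismet, Trr or RNA Pol II, and 1 touched Pc. The longest covered 1532 bp over CG12224 and CG3397 on 3R. Another 6 measured from 198 to 310 bp, the longest of these in Nrg, which encodes a cell adhesion molecule of the L1 family. The last were 53 bp in fusl and 10 bp in klg. The Pc list held the identical interval for 22 Brahma peaks and the HP1 list for 7.

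The HP1 contacts were led by the second longest Brahma peak, 4294 bp in Smr, with 853 bp in HP1. In 5 Brahma peaks Kismet, Trr, RNA Pol II, Pc and HP1 all made contact. They lay in Lrch, tna, CG5835, SNF4Agamma and kirre. At Lrch (190 bp) and CG5835 (257 bp) each of the 5 other lists covered the whole Brahma peak. At tna the contacts with Trr and HP1, and at SNF4Agamma that with RNA Pol II, were of 4 bp. tna encodes a SUMO ligase-related protein known for its genetic interaction with brm, and SNF4Agamma the gamma subunit of AMP-activated kinase.

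To name genes, the RefSeq gene table of genome release 6 was used, and an overlap of 1 bp between gene body and Brahma peak was enough. Of 17684 genes on 6 arms, 1053 (5.95%) held a Brahma peak, and of 13922 protein-coding genes 971 (6.97%) did. The rest were mainly 56 lncRNA and 18 antisense RNA genes. Most genes had a single peak (758 genes, 72.0%), 187 had 2, 65 had 3 and 43 had 4 or more. Peaks took up little of a gene, with a median of 289 bp or 3.28% of its body. Only 69 genes had 25% or more of the body in Brahma peaks. Of the 1053 genes, 94.0% also had a Kismet peak, 89.2% an RNA Pol II peak and 87.2% a Trr peak, where 23.5%, 41.5% and 20.5% of all genes did. Pc, HP1 and H1 were also more frequent in these genes, with 16.5% holding a Pc peak, 10.8% an HP1 peak and 1.23% an H1 peak, beside 5.21%, 4.64% and 0.532% of all genes. Long genes have more room for a peak of any list, and the part of gene length in these shares was not tested. Where RNA Pol II was present, in 7344 genes, 939 (12.8%) also held Brahma.

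Genes with Brahma peaks were long. Their median length was 11210 bp, against 1607 bp for genes without. All genes were split into 10 equal groups by length. The group of the longest genes is wide, from 11559 to 1965857 bp. In the group of the shortest genes 0.904% held a Brahma peak, in the fifth group 1.87%, in the ninth 12.8% and in the group of the longest 29.2% (95% Wilson interval 27.1 to 31.3%). Per Mb of gene body the order was different. The group of the shortest genes, where a peak can be longer than the gene it touches, had 45.01 peaks per Mb, the seventh group had the fewest with 10.4, and the eighth, ninth and longest had 15.01, 21.4 and 14.3.

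**Figure D3:**
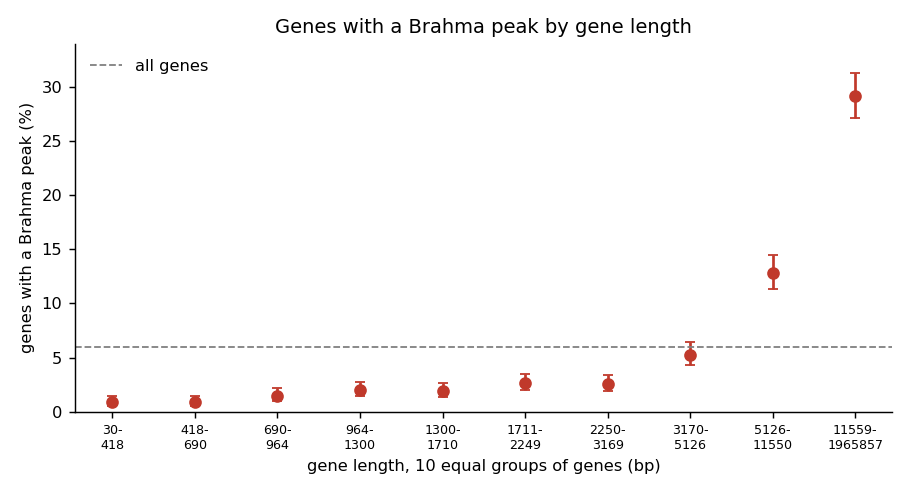
Share of genes (%) with at least 1 bp in a Brahma peak, in 10 equal groups of genes ordered by length in bp. Points carry 95% Wilson intervals and the dashed line marks all genes (5.95%). The share stays under 3% in the 7 shortest groups and reaches 29.2% in the longest.

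Brahma midpoints were spread along gene bodies. Of the 1569 peaks, 1331 (84.8%) lay in a gene and 238 did not, of which 106 lay within 1 kb of one. The table gives no strand, so both ends of each gene stand in for its start. A Brahma peak lay within 500 bp of a gene end in 24.3% of cases, and the midpoint in 19.9%, where such windows make up 17.9% of the arms. By midpoints the share was 24.2% for Kismet, 36.4% for Trr and 46.6% for RNA Pol II. In genes of 3000 bp or longer, the outermost 10% of the gene on either side held 16.4% of 1308 Brahma midpoints, and each of the 4 bands of equal width further in held from 19.5 to 22.8%. The peaks without Kismet that touched Trr or RNA Pol II were a small class of 53, of which 33 (62.3%) lay within 500 bp of a gene end.

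The gene with the most base pairs in Brahma peaks was rdx (FBgn0264493, 3R from 13967061 to 14032057), which encodes roadkill, an adaptor of a cullin ubiquitin ligase that limits Hedgehog signaling. It had 7171 bp in 5 peaks. The peaks measured 2561, 276, 3753, 298 and 283 bp in order along the gene, and the 3753 bp peak was the fourth longest of the list. All 5 touched the same Kismet peak of 31.1 kb, and 4 of them also touched Trr. Smr (FBgn0265523), coding for a co-repressor of nuclear receptors, had 4838 bp in 4 peaks, and lncRNA:CR43963, which overlaps it, 4507 bp in 2 peaks. NFAT (FBgn0030505), a transcription factor of the NFAT family, had 4282 bp in 7 peaks of 184 to 1249 bp, all within a Kismet peak of 28.6 kb that held more Brahma peaks than any other apart from an equal number at pnt.

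In some genes high by base pairs, 1 or 2 long peaks made up the sum. lncRNA:CR42651 had 3834 bp in 1 peak, which was 50.6% of its body. shep, an RNA-binding protein gene, had 3155 bp in 2 peaks, rudhira 2833 bp in 1, and the overlapping genes CG7029 and Usp12-46 shared 1 peak of 2822 bp. By number of peaks, lncRNA:CR44357 (11 peaks, 4955 bp) and CG1677 (10 peaks, 4699 bp) came first. They overlap on X, so that the same 10 peaks were counted in both. After pnt, which is described with its pathway, kirre, a gene for an immunoglobulin adhesion protein of myoblasts, had 7 peaks over a body of 394149 bp, lncRNA:CR44999 7 and Shrm 6.

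The longest Brahma peak measured 10208 bp (2R from 14888993 to 14899200). It ran from Cyp6a8 to Cyp317a1, a pair of cytochrome P450 genes, and reached into both. It lay wholly in a Kismet and a Trr peak, and 823 bp of it lay in RNA Pol II peaks. The next longest Brahma peaks were the 4294 bp in Smr, 3959 bp at lncRNA:CR42651, 3753 bp in rdx and 2940 bp at lncRNA:CR44380 and CG5550. Contact with the other lists was partial at some of the longest. In Fas2, which encodes a cell adhesion molecule, 298 of 2519 bp lay in a Kismet peak, and at CG9826 283 of 2333 bp did.

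EGFR signaling drives ISC proliferation, and 7 of the 24 genes of this pathway held a Brahma peak (29.2%), beside 5.95% of all genes. The median length of these 24 genes was 15038 bp, and the group of the longest genes, to which that length belongs, had the same share of 29.2%. That group starts at 11559 bp, and shorter genes belong to groups with shares of 12.8% or less. pnt (FBgn0003118, 3R from 23290231 to 23346167), the ETS activator at the end of the pathway, had 8 peaks of 152 to 491 bp, more than any other protein-coding gene but CG1677. In order along the gene they measured 152, 491, 196, 160, 281, 260, 358 and 364 bp. All 8 touched Kismet, 7 touched Trr and 6 touched RNA Pol II. The contact was partial in the 491 bp peak, of which 227 bp lay in Kismet and 0 in Trr or RNA Pol II, and in the first peak, which met Trr and RNA Pol II by 4 bp each. It was also partial in the last, 364 bp, which met Trr by 4 bp and RNA Pol II by 144 bp. The receptor gene Egfr (FBgn0003731, 2R from 21522420 to 21559977) had 5 Brahma peaks of 173, 51, 547, 295 and 200 bp, all between 13.6 and 21.4 kb from its lower-coordinate end. All 5 touched Kismet, and the 547 and 295 bp peaks lay wholly in Kismet, Trr and RNA Pol II peaks. Raf, the kinase, had 3, and the ETS repressor aop, the repressor cic, the ERK phosphatase Mkp3 and the adaptor drk had 1 each. The ligand genes spi, Krn and vn had 0, as did Cbl, whose product removes the receptor. The Brahma peak nearest to Cbl was 15.9 kb away.

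The Brahma peaks of pnt lay in its upper part, from 29985 bp after the lower-coordinate end onwards, and the last ended at 54.2 kb. A single Kismet peak of 12.3 kb that reaches over the upper end held 6 of them. Pc peaks covered 47.6% of pnt in 19 pieces. The longest pieces lay in the lower part, and shorter ones lay further up, as far as 50.9 kb, among the Brahma peaks. 2 Brahma peaks of pnt touched Pc, over 164 bp in all.

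**Figure D4:**
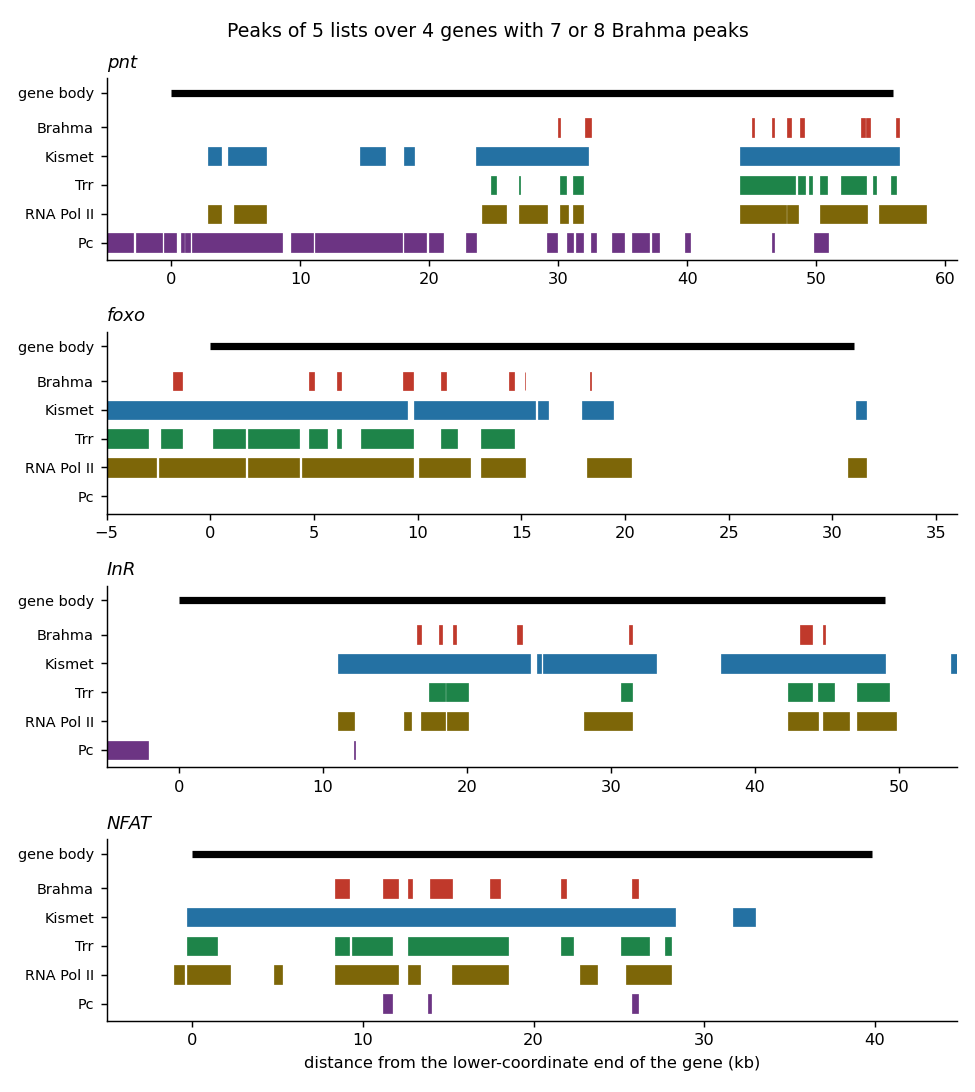
Peaks of Brahma, Kismet, Trr, RNA Pol II and Pc over pnt, foxo, InR and NFAT, as distance in kb from the lower-coordinate end of each gene, with 5 kb on both sides. The black bar is the gene body, and blocks are peaks to scale with a thin outline that keeps the shortest visible. The Brahma blocks lie within Kismet blocks or at their edges, and in pnt Pc blocks fill the lower part, where no Brahma peak lies. Shorter Pc blocks of pnt lie further up, among its Brahma blocks.

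The insulin pathway had 4 genes with Brahma peaks among 16 (25%). The share was 5.95% over all genes and 12.8% in the length group of the median gene of this list. The receptor and the transcription factor of the pathway each had 7 peaks. InR (FBgn0283499, 3R from 21570248 to 21619321), the insulin receptor, had 2198 bp in peaks of 249, 245, 222, 284, 203, 833 and 162 bp, spread from 16.6 to 44.9 kb along a body of 49.1 kb. foxo (FBgn0038197, 3R from 14056945 to 14087978), the forkhead factor that insulin signaling restrains, had 1482 bp in peaks of 234, 190, 480, 239, 260, 10 and 69 bp, which lay from 4.76 to 18.4 kb along a body of 31.0 kb. All 14 peaks touched Kismet. In InR 5 and in foxo 5 touched Trr, Kismet and RNA Pol II at once. Pi3K21B, a subunit of the lipid kinase, and ImpL2, which binds insulin-like peptides, had 1 peak each, and the Tor kinase and its regulators Tsc1, gig and Rheb had 0.

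In the length group of the median BMP pathway gene (7566 bp) 12.8% of genes held Brahma, and 5.95% of all genes did. BMP signaling had 5 of 11 genes with Brahma peaks (45.5%). They were the receptors tkv (5 peaks) and sax (1), the effector Mad (1), its cofactor shn (3) and the inhibitory Smad gene Dad (3). The tkv peaks measured 518, 804, 266, 192 and 308 bp. In tkv the 2 peaks nearest its upper end touched Trr and not Kismet, and one of these, 308 bp, was an interval that the HP1 list also held. The ligand genes dpp and gbb had 0. The list of ecdysone response genes and nuclear receptors had 8 of 24 (33.3%, median gene length 22973 bp). In the length group of that median 29.2% of genes held Brahma, close to the share of the list. The list was led by Eip75B with 7 peaks, all of them touching Kismet, 6 Trr and 2 RNA Pol II. Eip75B encodes a nuclear receptor induced by ecdysone, and its Brahma peaks measured from 104 to 308 bp, 5 of them in a Kismet peak of 21.1 kb. The last, 206 bp, met Kismet by 4 bp, and those of 273 and 288 bp met Trr by 4 bp each. Eip74EF and EcR, the ecdysone receptor, had 3 each, Hnf4, a receptor that governs lipid metabolism, 2, and svp, br, Hr39 and Hr4 1 each. The peaks of Hr4 and svp touched neither Kismet, Trr nor RNA Pol II.

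In the JNK and AP-1 pathway 6 of 14 genes (42.9%, beside 5.95% of all genes) held a Brahma peak, namely the kinase gene msn (2 peaks, 1579 bp) and, with 1 each, the TNF ligand egr, its receptor wgn, the phosphatase puc, kay (Fos) and Atf3. The peak of wgn measured 12 bp inside the gene. The median length of the 14 genes was 8510 bp, and in the length group of that median 12.8% of genes held Brahma. With the longer Brahma peaks alone (259 bp or more), 2 of these 14 genes were counted, 3 of the 24 ecdysone and nuclear receptor genes, 3 of the 21 Notch genes and 2 of the 16 insulin genes, beside 641 of all genes. The Wingless pathway had 5 of 15 (33.3%), namely nkd, arr, fz2, sgg and fz3. The Hippo pathway had 4 of 13 (30.8%). It had 3 peaks each in the kinase wts and in kibra and 1 each in ex and in Diap1, an inhibitor of apoptosis. In the length group of the median gene of both lists 29.2% of genes held Brahma. The medians, 12470 bp for Wingless and 12625 bp for Hippo, stand near the lower end of that group, at 11559 bp. Shorter genes belong to groups with shares of 12.8% or less. Of 21 Notch pathway genes 5 held Brahma (23.8%), beside 5.95% of all genes and 5.26% of the length group of their median gene. The receptor N and the co-activator mam had 2 peaks each, neur, a ubiquitin ligase for Delta, had 3, and numb and E(spl)malpha-BFM had 1 each. The peak of numb measured 11 bp and met Kismet by 4 bp. With an overlap of at least 100 bp, or with peaks of 50 bp or longer, 4 Notch genes were counted. JAK-STAT had 1 of 10 (10%), the feedback inhibitor Socs36E, with 2 peaks, beside 12.8% of the length group of its median gene.

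Delta, the ligand, had 0, with the nearest Brahma peak 11.8 kb away. The nearest peak to esg lay 0.969 kb outside the gene and that to spdo 0.278 kb outside, so that both are counted when genes are extended by 1 kb. Sox21a had its nearest peak at 24.1 kb.

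**Figure D5:**
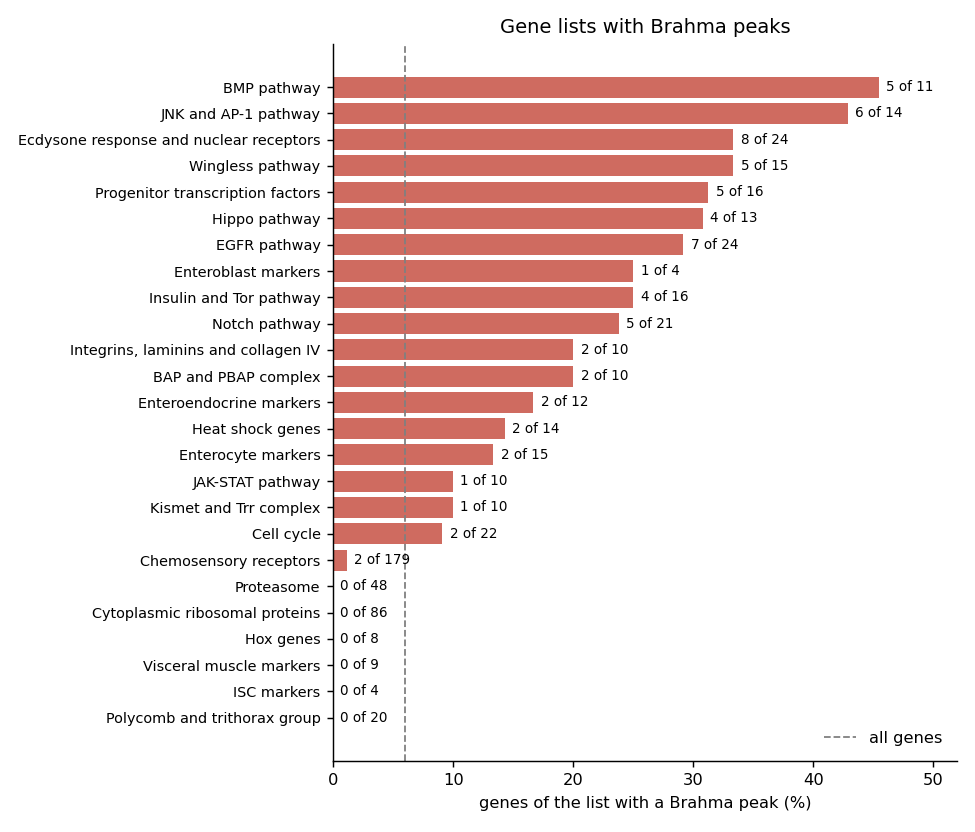
Share of the genes of each list (%) that hold at least 1 bp of a Brahma peak, with the count and the number of genes beside each bar. The dashed line marks all genes (5.95%). Signaling lists stand between 10% and 45.5%, and 6 lists, among them the Hox genes, the Polycomb and trithorax group, ribosomal proteins and the proteasome, stand at 0. The lists differ in gene length, and over all genes the share runs from 0.904% in the shortest group to 29.2% in the longest. The part of gene length in these bars was not tested.

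Among transcription factors of gut progenitors 5 of 16 held Brahma peaks (31.25%), with 3 in chn, 2 in klu and 1 each in emc, ttk and ken. In the length group of their median gene 12.8% of genes held Brahma, and 5.95% of all genes did. With the longer Brahma peaks alone (259 bp or more), 3 of these 16 were counted. For the BAP and PBAP complexes the length group of the median gene had a share of 5.26%. Of the genes for these complexes 2 of 10 held Brahma (20%). These were osa, the BAP-specific subunit, with 2 peaks that touched Kismet, Trr and RNA Pol II, and brm itself, with 1 peak of 228 bp that touched none of the 3. With the longer Brahma peaks alone, 0 of the 10 were counted. The Dam-Brm flies also carry brm sequence in the transgene, and reads from it and from the gene cannot be told apart. kis had 2 Brahma peaks, both touching Kismet, Trr and RNA Pol II, and trr had 0. The Dam-Kis flies carry kis cDNA, so the same limit holds for the Kismet peaks in kis.

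In 2 lists of short genes no Brahma peak was found. Of 86 cytoplasmic ribosomal protein genes 0 held a Brahma peak and 80 an RNA Pol II peak, and of 48 proteasome genes 0 held Brahma and 30 RNA Pol II. Their median lengths were 1345 and 1382 bp, both within the fifth of the 10 length groups, where 1.87% of genes held Brahma, so that counts of 0 are close to that share. Of 22 cell cycle genes 2 held Brahma (9.09%) and 20 RNA Pol II, where 5.95% of all genes and 5.26% of the length group of their median gene held Brahma. The 2 were E2f1 (1169 bp in 1 peak) and CycE (122 bp). Chemosensory receptor genes, most of which act in sensory neurons, had 2 of 179 (1.12%), and in Gr47b the contact was 7 bp. Their median length of 1691 bp also belongs to the fifth length group.

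Brahma peaks lay in 0 and Pc peaks in all 8 of the Hox genes, with a median gene length of 30563 bp. In the length group of that median 29.2% of genes held Brahma, and 5.95% of all genes did. In the Polycomb and trithorax group 0 of 20 genes held Brahma, while 15 held RNA Pol II and 9 Kismet. The 9 visceral muscle genes had 0 Brahma peaks. For this list and the one before it, the length group of the median gene had a share of 12.8%. The lists are small, and differences from these shares were not tested. The small heat shock genes Hsp23 and Hsp27 had 1 Brahma peak each among 14 heat shock genes (14.3%). In the length group of the median heat shock gene 2.55% of genes held Brahma. The integrin gene mew and the laminin gene wb had 3 peaks each among 10 genes for integrins, laminins and collagen IV (20%). In the length group of the median gene of this list 29.2% of genes held Brahma. The median, 11954 bp, stands at the lower end of that group, and the group below it had a share of 12.8%.

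Many Brahma peaks stood in groups. The median gap between neighbours was 24.1 kb, and the lower quartile was 4.49 kb. Joining peaks less than 10 kb apart gave 1024 groups, in which 695 peaks (44.3%) stood alone and 23 groups had 5 or more peaks. The largest group held 10 peaks over 28.0 kb on X (7297673 to 7325661), in CG1677 and lncRNA:CR44357, with Atg5, an autophagy gene, and Dok, a gene for an adaptor protein, inside it. Of these 10 peaks 8 touched Kismet, 8 Trr and 7 RNA Pol II. The next, with 9 peaks over 27.1 kb, was at foxo, and all 9 touched Kismet and RNA Pol II.

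One of the larger groups lay outside gene bodies. On 3R from 15618485 to 15649912, 7 Brahma peaks of 197 to 432 bp stood over 31.4 kb between AOX4 and pxb, with CG43335 and CG43336 in the same stretch and none of the peaks in a gene. In this group 3 peaks touched Kismet, 1 Trr and 0 RNA Pol II. At pnt, Lrch, kibra and NFAT, each the site of another group of 7, all 7 peaks touched Kismet.

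There were 136 Brahma peaks at none of Kismet, Trr and RNA Pol II (8.67%). Their median was 216 bp, against 264 bp for the 1433 at one or more of them, 77.9% lay in genes against 85.5%, and 30.1% lay within 500 bp of a gene end against 23.8%. The longest was 1681 bp in sog, which encodes an extracellular BMP antagonist. It was followed by the 1532 bp peak shared with H1, by 907 bp next to CG15043, and by 481 bp in CG3168, an interval also covered by Pc and HP1 peaks. The next were in CG11714 and Fuca, Eglp2, klar, hts and Snp, between 336 and 472 bp. At the level of genes, 30 of the 1053 genes (2.85%) had no Kismet, Trr or RNA Pol II peak anywhere in the body, beside 53.5% of all genes. One was Tk, an enteroendocrine peptide gene, with a single Brahma peak of 252 bp.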

How the data were processed

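Targeted DamID-seq of ISCs gave 3 samples per fusion and 11 Dam-only samples. Reads were mapped by the authors to release 6 with Bowtie2, counted them per GATC site with bedtools, compared fusion and Dam-only samples with DESeq2 and joined significant sites into peaks, once over all samples of a fusion. The deposited lists hold peak positions and no count, score or depth. Replicate spread and tests across samples could therefore not be had, and all shares are descriptions. The RNA-seq samples were not used here.

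Overlaps were counted in base pairs on 2L, 2R, 3L, 3R, 4 and X, with the end of an arm taken as its last annotated gene or peak, and were tested on simulated intervals against counting base by base. Gene bodies came from the RefSeq table of release 6 (17684 genes, all 17684 with a FlyBase identifier by symbol), which gives no strand, exons or sequence. Genes named in the text are the 10 with the most base pairs in Brahma peaks, the 10 with the most peaks, those at the 10 longest peaks, those at the longest peaks without Kismet, Trr or RNA Pol II or with Pc, HP1 or H1, those of the largest group, those the study names for DamID, and members of 25 gene lists. Others, such as genes without a peak in a list and peaks in 5 lists, were picked once their values were known. The peaks and the gene lists were chosen with earlier results of these data known. Alternatives were the overlap rule, gene type, peak length, arms, and the distances to gene ends and between peaks. Python 3.11.15, NumPy 2.4.6, SciPy 1.17.1 and matplotlib 3.10.9 were used.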

Additional observations from a re-analysis of the deposited data

How the results depend on the processing

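The lists carry no score, so peak length stood in for a stricter threshold, and the depth behind short peaks is unknown. Genes with Brahma peaks numbered 1053, and 962 to 1416 under 5 other settings, but 641 with only the longer Brahma peaks. With at least 50% of the Brahma peak covered, within 500 bp, and with only the longer peaks of each list, the share touching Kismet was 82.2%, 92.4% and 76.7%, Trr 61.1%, 73.6% and 49.7%, RNA Pol II 50.9%, 74.1% and 53.8%, Pc 3.57%, 7.65% and 2.78%, and HP1 0.765%, 2.29% and 0.127%. With overlaps of more than 8 bp, a setting chosen after seeing the data like that of Brahma peaks of 50 bp or longer, it was 83.0%, 63.7%, 53.4% and 4.27% for Kismet, Trr, RNA Pol II and Pc. The cause of these shifts was not tested beyond the rules' own construction. The share of Brahma base pairs in genes was 81.0%, and 78.2% with protein-coding genes. Within 1 kb of a gene end lay 35.3% of peaks, and 7.01% covered one. Groups numbered 1159 at 5 kb and 841 at 20 kb. Of 150 counts for gene lists, 14 moved by more than 1.5 times, 10 of them with the longer peaks alone. No paired analysis was possible because each list was called once over all samples, and no setting without a replicate could be run for the same reason. Motif and GATC counts in the peaks were not run, since no genome was used here.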

Other observations

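Some broad Kismet peaks held several Brahma peaks at genes outside the lists described above. These were read from the 10 Kismet peaks with the most Brahma peaks, a ranking made after the data were seen. A Kismet peak of 59136 bp on 3L held 6 Brahma peaks with 2116 bp, over scyl, which encodes an inhibitor of Tor signaling, and several lncRNA genes. A Kismet peak of 15317 bp in Sema5c, a semaphorin gene, held 5 with 1923 bp. The Kismet peak of 18843 bp at Act5C, a cytoplasmic actin gene, held 5 with 1822 bp, and that of 27120 bp over mir-ban, the bantam microRNA that promotes growth in flies, held 5 with 1376 bp. Against these, 130 of the 374 Kismet peaks of 10 kb or longer held no Brahma peak.

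Further groups of neighbouring Brahma peaks less than 10 kb apart lay at Lrch and CLIP-190 (7 peaks over 18.7 kb on 2L), at CG14995, Ack and Chd64 (7 peaks over 23.1 kb on 3L), at kibra, CG7530 and eff (7 peaks over 25.2 kb on 3R) and at hng3 and emc (6 peaks over 31.7 kb on 3L). emc encodes a helix-loop-helix protein that holds back proneural factors. In these 4 groups each Brahma peak touched Kismet. A small group of 4 peaks of 187 to 241 bp stood outside gene bodies between Ids and sty, the gene of the Sprouty inhibitor of EGFR signaling, and ended 4.78 kb from sty. All 4 touched Kismet and 3 touched Trr.

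Among small RNA genes 4 of 290 tRNA genes (1.38%), 1 of 260 miRNA genes (0.385%, mir-4943) and 1 of 269 snoRNA genes (0.372%) held a Brahma peak. The share was 5.95% over all genes and 0.904% in the group of the shortest genes, from 30 to 418 bp. A difference from these shares was not tested. At tRNA:Ser-CGA-1-2 on X the 82 bp gene lay wholly in a Brahma peak of 247 bp that an HP1 peak also covered.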
